A study of Mus musculus with 6 samples.

Results

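The tumour suppressor p53 is a transcription factor that is held at a low level in unstressed cells and accumulates after DNA damage and other forms of stress. It then activates genes that arrest the cell cycle, promote apoptosis or repair damage, and genes such as Mdm2 whose products return p53 to its resting level. In the lens, withdrawal from the cell cycle is also a normal step of fibre cell differentiation, so inhibitors of cyclin-dependent kinases are part of the ordinary programme of this tissue. Described here are 10 well known p53 target genes in embryonic lenses with and without a deletion of Gata3, a zinc-finger transcription factor of the lens. The 10 genes are Eda2r, Cdkn1a, Mdm2, Ccng1, Phlda3, Trp53inp1, Bax, Bbc3, Zmat3 and Aen, out of 13024 genes in the deposited table, and all 10 passed the filter on low counts. They were picked by name as p53 targets and chosen by a difference between the groups that was already known for Eda2r and Cdkn1a. Their values in this comparison are therefore a description. Where the outcome of a fit across all genes is counted for them, it stands beside the share of all genes and supports nothing.

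For each library, 10 lenses of 5 mouse embryos at E14.5 were pooled, on a mixed C57BL/6 and FVB background, and there were 3 pools per group. The knockout group (CKO) is labelled Gata3 -/- and was Gata3 f/f and heterozygous for Pax6-Cre, a transgene in which an ocular enhancer and the P0 promoter of Pax6 drive Cre recombinase in the precursors of lens and cornea. The control pools carried no Cre. The labels call them wild type, whereas the study's text gives Gata3 f/f in one place and Gata3 f/wt in another. Because Cre was present in the CKO pools and absent from the control pools, an effect of Cre and an effect of Gata3 loss cannot be told apart in these data. For the targeted gene, the count was higher and not lower under the CKO label: Gata3 reached counts of 202, 386 and 156 in control but 910, 1064 and 894 under the CKO label. The deleted part is exon 4, and a count over the whole gene takes in exons outside it, so this count does not check the labels. The study looked at exon 4 on its own, which the counts used here do not allow. Among the lens fibre markers, the lens nuclease gene Dnase2b was at 12.9, 22.6 and 7.54 CPM (scaled counts, defined below) in control and 0.973, 0.305 and 0.468 CPM under the CKO label. Directions refer to these labels.

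The libraries held 15157230 to 18811104 counts. The unit of level used throughout is CPM, a gene's count scaled to a common library size with edgeR's TMM factors. Lens markers were abundant in every library, and the 16 crystallin genes took between 5.47% and 16.5% of all counts. The share was highest in control replicate 2 (16.5%), followed by control replicate 1 (9.31%), and it was 6.63% in control replicate 3 and 5.47% to 7.27% in the libraries labelled CKO. The 9 mesenchyme markers summed to 2149 CPM in control replicate 1 and 3867 CPM in CKO replicate 2, against 228 to 472 CPM in the other 4 libraries. In bulk RNA, fewer cells of a type and less RNA per cell cannot be told apart.

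Across all 12879 genes tested, edgeR's quasi-likelihood test with Benjamini-Hochberg adjustment called 0 genes (0%) at an adjusted p of 0.05, with 457 genes at an unadjusted p under 0.05, and so called 0 of the 10 p53 targets. By the fitted log2 fold change, 9 of the 10 genes were higher in the libraries labelled CKO and Aen was lower, where 50.6% of all genes were higher. Their median log2 fold change was 0.45, beside 0.00 over all genes tested. In 5 of the 10 (Eda2r, Cdkn1a, Trp53inp1, Bbc3 and Zmat3) each of the 3 libraries labelled CKO lay above each of the 3 control libraries, and this was so for 3.67% of all genes. At an unadjusted p of 0.05, 4 of the 10 were higher, with a background of 1.3%. Since the contrast itself was used to choose the genes, nothing is read from these shares.

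**Figure D1:**
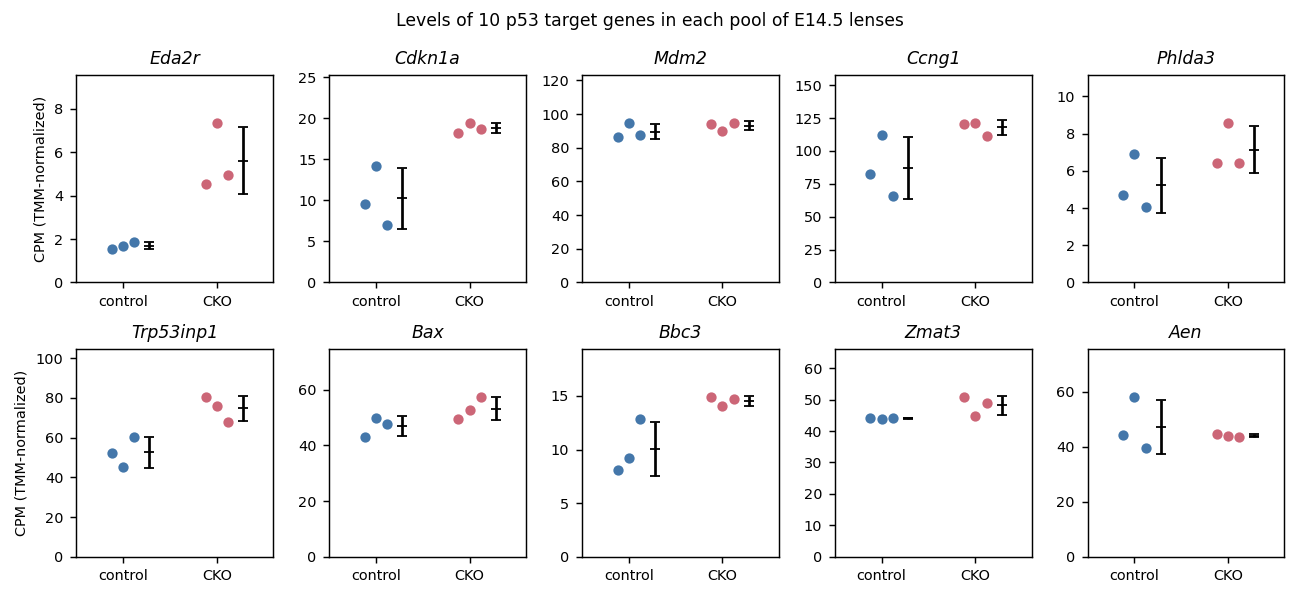
Levels of the 10 p53 target genes in CPM (vertical axis, starting at 0) in the 3 control pools (blue) and the 3 pools labelled CKO (red), with black bars for mean ± SD. Points stand in the order of replicates 1 to 3. Groups are separate for Eda2r, Cdkn1a, Trp53inp1, Bbc3 and, by a small margin, Zmat3, and they overlap for Mdm2, Ccng1, Phlda3, Bax and Aen.

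Eda2r, also called Xedar, encodes a receptor of the tumour necrosis factor receptor family that binds the A2 isoform of ectodysplasin. The gene lies on the reverse strand of the X chromosome (97333840 to 97377216, mm10) and overlaps no other annotated gene. Control replicates 1, 2 and 3 gave 24, 24 and 33 reads of Eda2r, and CKO replicates 1, 2 and 3 gave 70, 145 and 95. In CPM, the control libraries held 1.52, 1.69 and 1.84, and the libraries labelled CKO held 4.54, 7.37 and 4.94. The lowest CKO value was thus 2.70 CPM above the highest control value, although the gene had the lowest level of the 10 in both groups. The means were 1.69 ± 0.161 CPM (SD, n = 3) and 5.62 ± 1.53 CPM (SD, n = 3), a ratio of 3.33 and a fitted log2 fold change of 1.73 (standard error, SE, 0.28). In order of fold change from the top, Eda2r stood at rank 10 of the 12879 genes tested. DESeq2's Wald test called Eda2r alone of the 10, with a background of 0.225% of genes called and higher.

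The highest Eda2r value was that of CKO replicate 2, which also had the highest mesenchyme markers. Control replicate 1, the other library with high mesenchyme markers, had the lowest Eda2r value, but the same 24 counts as control replicate 2. An alternative added after seeing the data left out control replicate 1 and CKO replicate 2. Eda2r was then 1.69 and 1.84 CPM against 4.54 and 4.94 CPM, and its log2 fold change was 1.43 in place of 1.73. As an X-linked gene it was also set beside the sex of the embryos in the pools. Xist, the RNA that coats the inactive X chromosome of females, was at 2726 CPM in CKO replicate 1 and at 661 to 1734 CPM in the other 5 libraries, and 4 genes of the Y chromosome summed to 62.6 CPM in CKO replicate 1 and 106 to 227 CPM in the others. Among the libraries labelled CKO, the pool with the most Xist had the least Eda2r, by a small margin (4.54 against 4.94 CPM, 70 against 95 counts). Among the control libraries, the pool with the most Xist was intermediate in Eda2r. With Xist as a covariate the log2 fold change of Eda2r was 1.74. The paper states that Eda2r RNA was also found raised in lenses hemizygous for le-cre, a similar Cre line. It asks for studies of whether the Pax6-Cre transgene itself alters expression slightly. For Eda2r too, an effect of Cre and an effect of Gata3 loss cannot be told apart here. Whether mesenchyme content or embryo sex plays a part in the level of Eda2r was not tested.

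The ligand gene Eda was measured at 7.54, 11.7 and 5.92 CPM in control and 7.13, 8.34 and 7.08 CPM in the libraries labelled CKO, with overlapping groups and a log2 fold change of -0.15 (95% interval -0.80 to 0.49). Of the 11 genes listed for the ectodysplasin pathway (ligand, receptors, adaptors and the route to NF-kappaB), 9 were tested, 0 were called by edgeR or DESeq2 and 0 had an unadjusted p under 0.05. Their median log2 fold change was -0.04, and the largest in size was that of Eda. Edaradd, the adaptor of the related receptor Edar, was below every control library in each library labelled CKO (24.6 to 25.9 against 27.0 to 28.8 CPM), as were 4.69% of all genes. Its log2 fold change was -0.14 (95% interval -0.34 to 0.06). Edar itself was not analysed here.

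Cdkn1a encodes p21, the inhibitor of cyclin-dependent kinases through which p53 arrests the cell cycle. It lies on the forward strand of chromosome 17 (29090976 to 29100727). The control libraries held 9.50, 14.2 and 6.98 CPM and the libraries labelled CKO 18.2, 19.5 and 18.7 CPM. The control values were spread widely, the CKO values lay close together, and the lowest CKO value was 3.98 CPM above the highest control value. The means were 10.2 ± 3.68 CPM (SD, n = 3) and 18.8 ± 0.634 CPM (SD, n = 3), a ratio of 1.84 and a log2 ratio between groups of 0.88 (SE 0.25). It was 0.67 to 1.20 when single libraries were dropped one by one. In the GENCODE M21 annotation, a gene model on the opposite strand (AC167363.2) shares 273 exon bases with Cdkn1a. The counts were made on RefSeq genes, and the strand setting of the counting is not given in the sources used here.

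Of the 10 genes, 8 had promoter sequences in the RefSeq table for GRCm38.p6, the assembly of mm10, from 250 bases before to 50 bases after each annotated start site. Trp53inp1 and Zmat3 had none. These windows were searched for the p53 consensus motif, 20 bases made of a pair of adjoining repeats that each hold the core CNNG. The motif reads the same on both strands. With both cores required and at most 1 other mismatch, it was found in the windows of 6 of 10084 genes (0.0595%), and Cdkn1a and Ccng1 were among these 6. Both sequences are shown here because these are the closest matches among the 10 genes, with the motif in capitals and its surroundings in lower case. The Cdkn1a motif (chr17:29090928-29090947) begins 51 bases before a start site of the gene and lies 2841 bases from another annotated start. The Ccng1 motif (chr11:40755462-40755481, reverse strand) begins 195 bases before its start site.
Cdkn1a: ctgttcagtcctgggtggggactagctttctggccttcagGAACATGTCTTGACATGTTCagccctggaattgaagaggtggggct
Ccng1: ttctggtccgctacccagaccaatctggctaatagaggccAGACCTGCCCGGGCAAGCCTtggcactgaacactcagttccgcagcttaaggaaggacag

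With up to 3 mismatches, the motif was found in 4 of the 8 genes with a promoter and in 1.83% of the 10084, and the further matches were in Bbc3 (chr7:16309486-16309505) and Aen (chr7:78895937-78895956). They are shown to set a looser match beside the closer ones.
Bbc3: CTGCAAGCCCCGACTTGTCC
Aen: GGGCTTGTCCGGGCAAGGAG
Among the 8 genes searched, those with and without a match had overlapping differences between groups. Cdkn1a and Ccng1, with the closest matches, had log2 fold changes of 0.88 and 0.44. Bbc3 had 0.53 and Aen -0.10. Eda2r, with the largest value, and Mdm2, Phlda3 and Bax had no match within 3 mismatches in these windows, which leaves sites elsewhere in the genes unsearched. Outside the 10, the genes with at most 1 mismatch were Calhm2, Gtse1, Mthfd1 and Rps27l. Their log2 fold changes ran from -0.09 to 0.28, and 0 of these 4 had an unadjusted p under 0.05. Gtse1 and Rps27l are themselves known p53 targets.

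Mdm2 and Ccng1 stand in the negative feedback on p53. Mdm2 encodes the ubiquitin ligase that marks p53 for degradation, and Ccng1 encodes cyclin G1, a partner of protein phosphatase 2A that acts on Mdm2. Mdm2 (chromosome 10, 117688875 to 117710758) held 86.2, 94.5 and 87.5 CPM in control and 94.0, 90.1 and 95.0 CPM in the libraries labelled CKO. The groups overlapped, and the log2 fold change was 0.06 (SE 0.0696). It had the smallest difference of the 10 genes. Ccng1 (chromosome 11, 40748552 to 40755311) held 82.1, 112 and 65.9 CPM in control and 121, 122 and 112 CPM in the libraries labelled CKO. CKO replicate 3 and control replicate 2 had nearly the same value, so the groups overlapped slightly, while the other 2 control libraries were well below all of the others. The means were 86.8 ± 23.6 CPM (SD, n = 3) and 118 ± 5.58 CPM (SD, n = 3), with a log2 ratio between groups of 0.44 (SE 0.19). The ratio was 0.28 without control replicate 3 and 0.68 without control replicate 2.

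Among the genes that promote apoptosis, Bbc3 encodes Puma, a BH3-only protein that relieves the block on Bax, and Bax encodes the protein that permeabilizes the outer membrane of mitochondria. Bbc3 (chromosome 7, 16308393 to 16318205) held 8.05, 9.23 and 12.8 CPM in control and 14.9, 14.0 and 14.7 CPM in the libraries labelled CKO. Control replicate 3 came within 1.19 CPM of the lowest CKO value. The log2 fold change was 0.53 (SE 0.19), and 0.41 to 0.75 when single libraries were dropped one by one. Bax (chromosome 7, 45461697 to 45466898) held 42.8, 49.8 and 47.7 CPM in control and 49.3, 52.6 and 57.4 CPM in the libraries labelled CKO. Its groups overlapped, by control replicate 2 and CKO replicate 1, and the log2 fold change was 0.18 (SE 0.0967). In the GENCODE M21 annotation Bax shares 192 exon bases with Gm45808 on the same strand. The counts were made on RefSeq genes, so whether this overlap affects the count of Bax is not known.

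Aen encodes an apoptosis-enhancing nuclease. On chromosome 7 (78895854 to 78911209), it held 44.1, 58.1 and 39.4 CPM in control and 44.8, 43.8 and 43.6 CPM in the libraries labelled CKO, so that all 3 CKO values lay inside the range of the controls. Its log2 fold change of -0.10 (SE 0.15) changed sign to 0.09 without control replicate 2. Among 19 genes listed for the Bcl2 family and the apoptosome, 16 were tested and 0 were called by edgeR or DESeq2. At an unadjusted p under 0.05, 0 were higher. The median of the 16 was 0.00.

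Trp53inp1, Phlda3 and Zmat3 act on other arms of the response. Trp53inp1 encodes a nuclear protein that promotes p53 activity and autophagy. On chromosome 4 (11156431 to 11174379), it held 52.3, 45.1 and 60.4 CPM in control and 80.6, 75.8 and 68.0 CPM in the libraries labelled CKO. All 3 CKO values were at least 7.58 CPM above the highest control value. The means were 52.6 ± 7.64 CPM (SD, n = 3) and 74.8 ± 6.38 CPM (SD, n = 3), with a log2 ratio between groups of 0.51 (SE 0.13). It was 0.42 to 0.62 when single libraries were dropped one by one.

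Phlda3 encodes a pleckstrin homology domain protein that restrains the kinase Akt. On chromosome 1 (135766119 to 135769136), it held 4.69, 6.91 and 4.08 CPM in control and 6.42, 8.60 and 6.40 CPM in the libraries labelled CKO. Control replicate 2 lay above CKO replicates 1 and 3, and CKO replicate 2 was the highest. The log2 fold change was 0.45 (SE 0.26), and 0.30 without CKO replicate 2. Zmat3 encodes a zinc-finger protein that binds RNA. On chromosome 3 (32334792 to 32366014), its control values of 44.3, 43.9 and 44.1 CPM were almost equal, and the libraries labelled CKO held 50.9, 44.9 and 48.9 CPM. The groups were separate by 0.568 CPM, but the log2 fold change was small at 0.13 (SE 0.0797).

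**Figure D2:**
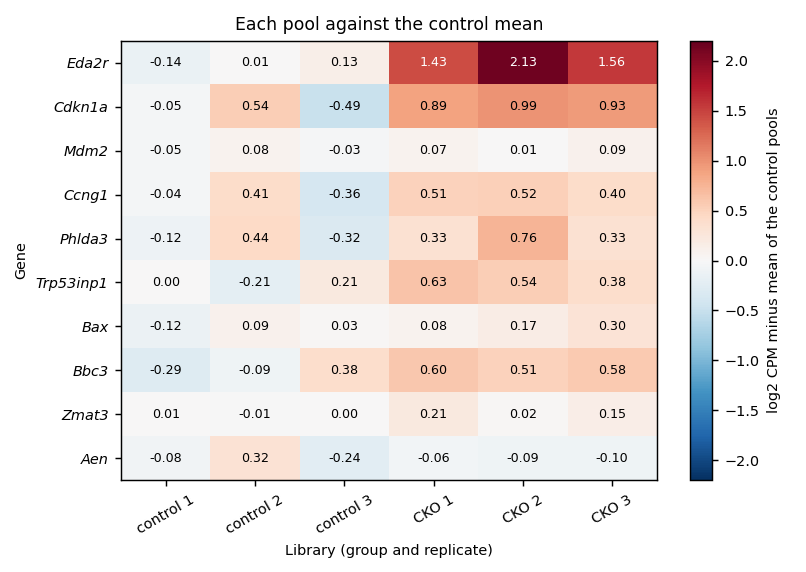
Log2 CPM of each gene (rows) in each library (columns) minus the mean log2 CPM of the 3 control pools. Red is higher and blue is lower than the control mean. The CKO columns are red in the rows of Eda2r, Cdkn1a, Ccng1, Phlda3, Trp53inp1 and Bbc3, and control replicate 2 is red in the rows of Cdkn1a, Ccng1, Phlda3 and Aen, at 0.54, 0.41, 0.44 and 0.32.

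Compared per length, as CPM per kilobase of the exons of protein-coding transcripts in the basic set of GENCODE M21, levels in control differed over a wide range. Bax was highest at 54.0, followed by Mdm2 at 28.4 and Ccng1 at 24.7. Trp53inp1 (9.73) and Aen (9.18) came next, then Zmat3 (5.66), Bbc3 (5.54), Cdkn1a (3.77) and Phlda3 (3.64), and Eda2r was lowest at 0.351. In the libraries labelled CKO the order at the top was Bax (61.2), Ccng1 (33.6) and Mdm2 (29.6), and Eda2r was again lowest (1.17). In control, neighbours such as Mdm2 and Ccng1, or Cdkn1a and Phlda3, did not differ beyond the spread of their own pools. Under the CKO label Cdkn1a (6.92) was above Phlda3 (4.97). The order depends on the length used. Over all annotated exons, Bax measured 1576 bases in place of 867 and Mdm2 5083 in place of 3145, while Ccng1 measured 3512 in both.

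Within the control group, 4 of the genes shared an order. Cdkn1a, Ccng1, Phlda3 and Aen were each highest in control replicate 2, intermediate in control replicate 1 and lowest in control replicate 3, which is the order of the crystallin share. Trp53inp1 had the opposite order, and Bbc3 was highest in control replicate 3. In the libraries labelled CKO the crystallin share was low and Cdkn1a was high. CKO replicate 1 and control replicate 3, with crystallin shares of 7.27% and 6.63%, had 18.2 and 6.98 CPM of Cdkn1a. Control replicate 3 had the lowest Cdkn1a value of all 6 libraries. Whether the lens fibre content of a pool plays a part in the level of Cdkn1a was not tested. Once control replicate 2 was dropped, Cdkn1a, Ccng1 and Phlda3 had log2 fold changes of 1.20, 0.68 and 0.72. The libraries labelled CKO then lay above the remaining control libraries in 9 of the 10 genes, all except Aen, and in 12.3% of all genes. With the mesenchyme-rich control replicate 1 and CKO replicate 2 left out instead, and the scaling of the remaining 4 libraries refitted, this was so for 6 of the 10 genes and for 11% of all genes. The 6 were the 5 named above and Mdm2, whose values in the same 4 libraries overlap on the scale of all 6.

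**Figure D3:**
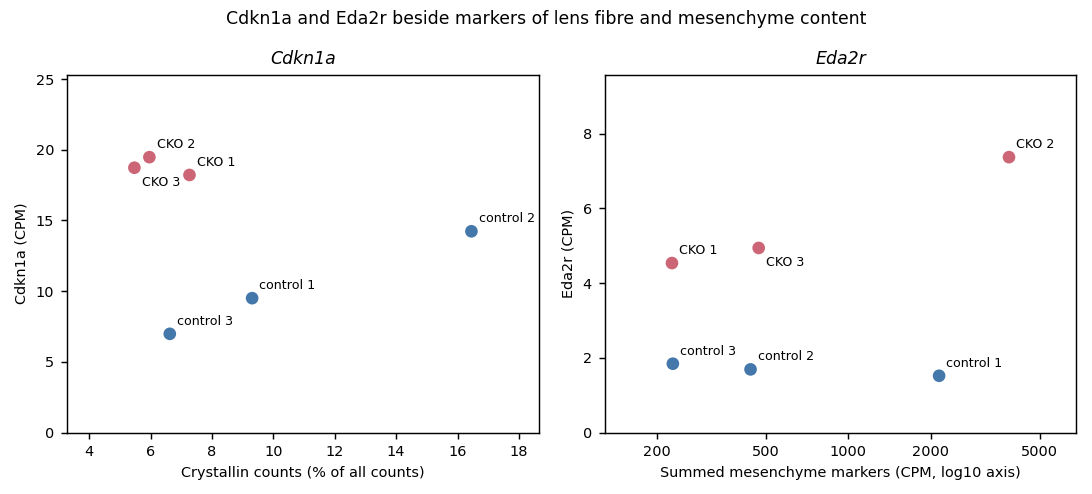
Left, Cdkn1a in CPM against the share of all counts taken by the 16 crystallin genes. Right, Eda2r in CPM against the summed CPM of 9 mesenchyme markers on a log10 axis, with control pools in blue and pools labelled CKO in red. Cdkn1a lies at 18.2 to 19.5 CPM in the CKO pools and follows the crystallin share in the 3 control pools, and Eda2r is at 4.54 CPM or more in all 3 CKO pools, at both low and high mesenchyme levels.

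The wider p53 network was described with 2 further lists. Of 44 other p53 targets, 36 were tested, and 0 were called by edgeR at an adjusted p of 0.05. Their median log2 fold change was -0.01, beside 0.45 for the 10 genes and 0.00 for all genes, with 17 higher and 19 lower. At an unadjusted p under 0.05, 3 were higher and 0 were lower, where 1.3% of all genes were higher and 2.24% lower. The 3 were Cpt1c, a brain-type carnitine palmitoyltransferase, Ak1, an adenylate kinase, and Ei24, an endoplasmic reticulum protein of autophagy. Cpt1c held 34.8, 38.6 and 31.4 CPM in control and 55.0, 49.3 and 46.9 CPM in the libraries labelled CKO, a log2 ratio between groups of 0.53 (SE 0.11, adjusted p = 0.573 by edgeR's quasi-likelihood test and 0.0163 by DESeq2's Wald test). It was put on the list with its difference known. Ak1 held 20.4, 25.2 and 22.4 CPM and 30.7, 31.3 and 29.1 CPM, a log2 ratio between groups of 0.42 (SE 0.11, adjusted p = 0.755 by edgeR). Ei24 had a log2 ratio between groups of 0.19 (SE 0.0721), with 87.7 to 98.5 CPM in control and 103 to 109 CPM in the libraries labelled CKO.

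Of the other p53 targets that respond to stress, Sesn2, whose product restrains growth signalling, held 11.1, 12.5 and 11.7 CPM in control and 10.6, 11.6 and 12.9 CPM in the libraries labelled CKO. The groups overlapped, with a log2 fold change of -0.01 (95% interval -0.33 to 0.32). This interval leaves out the value fitted for Cdkn1a but allows smaller differences in both directions. The 95% interval of Cdkn1a was 0.28 to 1.48 and overlaps it, and Sesn2 and Cdkn1a were not compared by a test. Pmaip1, which encodes the BH3-only protein Noxa, and Gdf15, a secreted stress factor, were not analysed here.

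**Figure D4:**
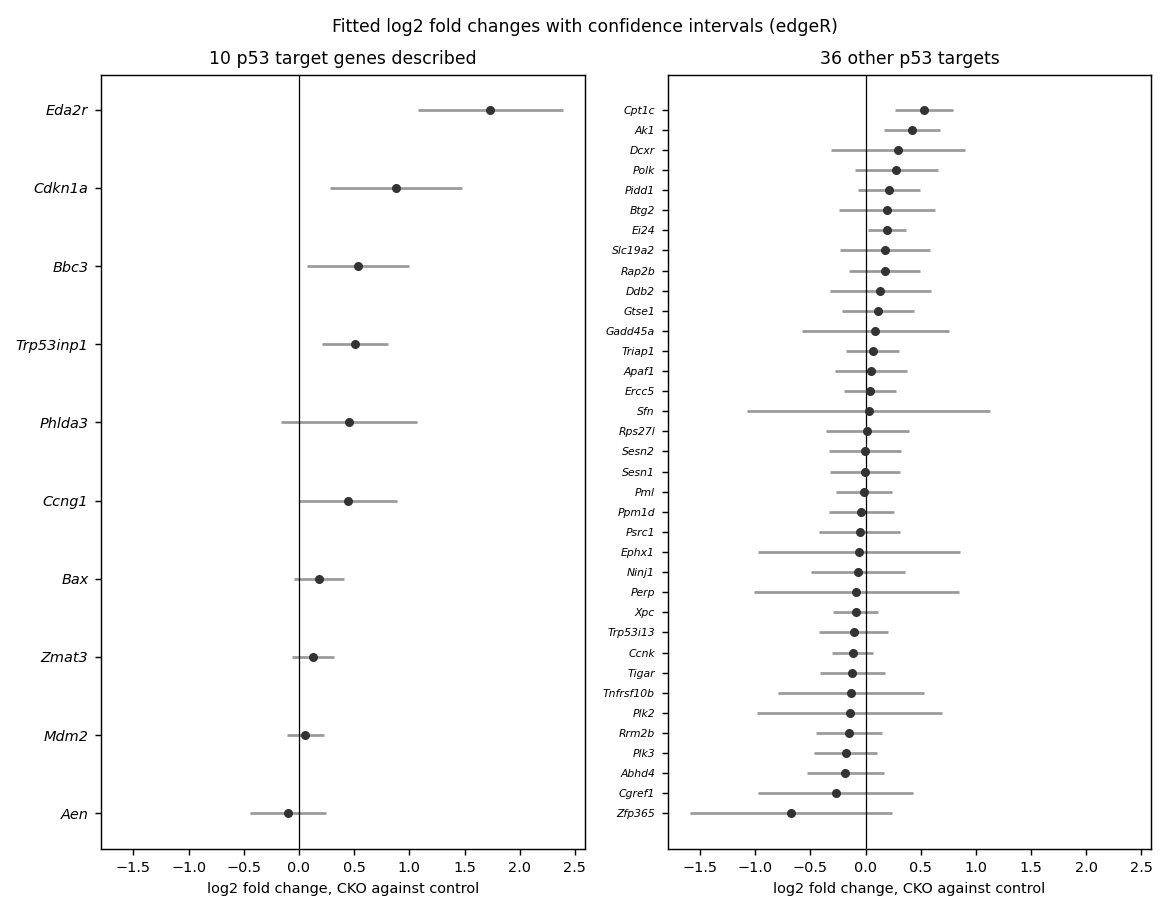
Fitted log2 fold changes of the libraries labelled CKO against control (horizontal axis, points) with 95% intervals from edgeR (grey bars, n = 3 per group), for the 10 genes described (left) and the 36 other p53 targets tested (right). Eda2r is at 1.73 and Cdkn1a at 0.88, and the other targets lie between -0.68 for Zfp365 and 0.53 for Cpt1c.

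The gene for p53 itself, Trp53, was at 101, 93.4 and 96.1 CPM in control and 101, 98.0 and 98.1 CPM in the libraries labelled CKO. The values of the groups overlapped, and the log2 fold change was 0.03 (95% interval -0.12 to 0.18). RNA counts do not measure p53 protein, which is controlled mainly through its stability. Mdm4, which encodes the partner of Mdm2 in holding p53 down, was at 243 to 292 CPM in control and 268 to 307 CPM in the libraries labelled CKO (log2 fold change 0.07, 95% interval -0.17 to 0.30). Of 21 listed genes for p53, its relatives and its regulators, such as the damage kinases Atm and Atr, 18 were tested. None was called by edgeR or DESeq2, 0 had an unadjusted p under 0.05, and their median was -0.01. The largest value was that of Trp63, 0.51 (SE 0.58), a gene of the surface ectoderm.

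Through p21, p53 lowers the expression of many genes of the cell cycle, so 16 of these were set beside Cdkn1a. Their log2 fold changes lay between -0.11 for Cdc25c and 0.16 for Plk1, with a median of 0.05. None was called by edgeR or DESeq2, 0 had an unadjusted p under 0.05, and 11 were higher and 5 lower in the libraries labelled CKO.

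The genes whose profiles over the 6 libraries were most like those of Eda2r and Cdkn1a were sought by the root mean square difference of log2 CPM, each profile centred on its own mean. Candidates were the genes with a log2 fold change of the same sign and at least 0.5 times as large, 76 for Eda2r and 319 for Cdkn1a. Nearest to Eda2r were Pcp4l1 (difference 0.27), Nptx2 (0.32) and Atp10d (0.37), with log2 fold changes of 1.25, 1.23 and 1.38. Nearest to Cdkn1a were Arhgef19 (0.10), Palm3 (0.16) and Eva1a (0.17), with log2 fold changes of 1.03, 0.78 and 1.21. Arhgef19 held 5.26, 8.74 and 3.74 CPM in control and 11.5, 12.4 and 12.2 CPM in the libraries labelled CKO. It was picked for its likeness to Cdkn1a, so the shared spread of the control pools and even level of the others follow from that choice.

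Markers of other tissues were present in all libraries at levels that varied between pools. Retina markers (10 genes) summed to 803 to 1938 CPM in control and 1313 to 1791 CPM in the libraries labelled CKO, and pigment cell markers to 53.3 to 309 CPM and 60.6 to 313 CPM. Macrophage markers (7 genes) summed to 56.6 to 100.3 CPM and 51.9 to 69.1 CPM, vessel markers to 246 to 312 CPM and 219 to 276 CPM, and surface ectoderm markers to 96.2 to 182 CPM and 101 to 256 CPM. Lens epithelium markers (6 genes) summed to 1125 to 1625 CPM in control and 1171 to 1251 CPM under the CKO label, and the 3 tested blood markers to 346 to 1267 CPM and 279 to 409 CPM. The ranges of the sums overlapped in each of these lists. By fitted values, all 10 retina markers (median log2 fold change 0.19) and all 9 mesenchyme markers (0.61) were higher. All 7 macrophage markers (median -0.44), all 3 blood markers (-0.98) and all 6 epithelium markers (-0.35) were lower. Of these, C1qa, a complement gene of macrophages, alone had an unadjusted p under 0.05, and edgeR and DESeq2 called none. The part of such cells in the levels of the p53 targets was not tested. All 13 lens fibre markers had lower fitted values in the libraries labelled CKO, and their median on the log2 scale was -1.04. With the mean fibre marker level as a covariate, an alternative added after seeing the data, the log2 fold changes of Cdkn1a, Ccng1 and Phlda3 were 1.73, 1.12 and 1.09. Those of Trp53inp1 and Bbc3 were 0.26 and 0.24, that of Aen was 0.39, and that of Eda2r was 1.58. All 13 markers behind this covariate were themselves lower under the CKO label, so the covariate and the group cannot be fully told apart.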

How the data were processed

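RNA from 6 pools of E14.5 lenses was sequenced. The authors trimmed reads with Trim Galore, aligned them to mm10 with TopHat2 2.0.13, and deposited raw counts per RefSeq gene from HTSeq 0.6.1, for genes that passed a filter on FPKM from Cuffdiff 2.2.1. The strand and overlap settings are not given in the sources used here. Replicate numbers follow the sample titles. The study used distinct pools as replicates. The p-values set the difference between groups against the variation between pools, which was estimated with information shared across genes.

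From the counts, the 12879 genes that reached 10 counts in 3 or more libraries were fitted with edgeR 4.0.16 (TMM, robust quasi-likelihood, R 4.3.3), CKO against control without covariates, and called at a Benjamini-Hochberg adjusted p under 0.05. Unadjusted p, DESeq2 1.42.0, RLE factors, crystallin-free library sizes, no filter, a replicate block, Xist as a covariate and each library left out were alternatives. A fibre marker covariate and the removal of mesenchyme-rich libraries were added after seeing the data. The model was checked on simulated counts. Positions and exon lengths came from GENCODE M21 and promoters from RefSeq (GRCm38.p6). The 10 genes and all lists were chosen with earlier results of these data known. Named genes were the 10, listed genes with an unadjusted p under 0.05, a few that show what a list holds, and the 3 profiles most like Eda2r and Cdkn1a. The extremes of lists, genes named in counts of 5 or fewer and the motif genes were chosen after their values were seen. The result of 1 gene of the Bcl2 family and apoptosome list is not reported here.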

Additional observations from a re-analysis of the deposited data

How the results depend on the processing

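At 15157230 to 18811104 counts per library, Eda2r rests on 24 to 145 counts, and counting error limits it more than the other genes. The number of genes called over the whole table was 0 with edgeR, 85 with DESeq2, 3 with Xist as a covariate and 362 with the fibre marker covariate, and 0 to 1 with each library left out (1 without control replicate 3). Of the 36 other p53 targets, 1 was called with DESeq2 (Cpt1c) and 2 with the fibre marker covariate (Cpt1c and Zfp365). The covariate turned Zfp365 from a log2 fold change of -0.68 to 0.82. The median log2 fold change of the 10 genes was 0.32 with the fibre marker covariate and 0.32 without the mesenchyme-rich libraries, and 0.29 to 0.50 with each library left out (0.29 without control replicate 3). Separate groups were found for 5 to 9 of the 10 genes after removal of a single library (9 without control replicate 2). With all 6 libraries, 3.67% of all genes had every CKO library above every control library. After removal of 1 library this share was between 6.34% (CKO replicate 3 removed) and 13.7% (control replicate 3 removed). It was 12.3% without control replicate 2. Separation was thus more frequent over all genes whenever a library was missing. With the fibre marker covariate Cdkn1a was at 1.73 and Ccng1 at 1.12. In that fit edgeR's quasi-likelihood test called both (adjusted p = 0.0136 and 0.00408) and no other of the 10 genes, among the 362 genes called. The causes were not tested. With the replicate block the median was 0.47 and 0 genes were called, with 516 genes at an unadjusted p under 0.05 in place of 457. Same-numbered pools correlated at -0.49, 0.09 and 0.44 in their deviations, so the numbers were not taken to pair the samples. No promoter of the 10 genes matched the p53 motif with 0 mismatches. Windows of other lengths around the start sites were not run.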

Other observations

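Apart from the 10 genes, 41 tested genes held the p53 motif with at most 2 mismatches in their promoter windows. Of these, 22 had higher and 19 had lower fitted values in the libraries labelled CKO, and their median log2 fold change was 0.01. With edgeR 0 were called. At an unadjusted p under 0.05, 0 were higher and 1 was lower, where 1.3% of all genes were higher and 2.24% lower. The lower gene was Alox12, a lipoxygenase gene (log2 fold change -2.63, standard error 0.49). DESeq2 called it as 1 of 85 genes over the whole table, and nothing about the motif is read from it.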
